A study of Homo sapiens with 46 samples.

Results

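Cytoplasmic RNA of cells directed to endoderm was compared with cytoplasmic RNA of cells directed to mesoderm. The comparison takes 6 of the 46 libraries of the series, 3 from each cell type, chosen by their labels. Both cell types came from H1, an established line of human pluripotent stem cells (hPSC), and both were collected after 5 days. Endoderm cells were grown in RPMI with 0.5% FBS, WNT3A (given by the labels as 50 nM/ml) and activin A at 100 ng/ml. Mesoderm cells were grown in DMEM/F12 with 0.5% FBS, VEGF at 100 ng/ml, BMP4 at 100 ng/ml and bFGF at 10 ng/ml, with activin A at 100 ng/ml for the first 24 hours. The base medium therefore differs together with the factors, and the labels name no growth factor that both groups received until collection. Cytoplasm was the supernatant of a mild detergent lysis spun over sucrose. The labels name no sorting of the cells, all from 1 line, and do not say that the repeats came from separate cultures, so p-values measure the spread between these libraries, which may be technical.

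Both germ layers arise at the primitive streak of the embryo. Nodal signalling, which activin A imitates in culture, drives streak cells towards definitive endoderm through EOMES, GATA factors, SOX17 and FOXA2. BMP and FGF signals favour mesoderm, in which the T-box factor TBXT and the regulators MIXL1 and MESP1 come early and heart, limb and kidney field regulators such as ISL1, HAND1 and IRX3 come later. BMP4 given to pluripotent cells for days can also direct them towards amnion and trophoblast, which express TFAP2 factors, GABRP and VTCN1.

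The 6 libraries held 15955662 to 18360084 counts in endoderm and 13506967 to 17143491 in mesoderm. Transcripts were assembled separately for each cell type, and the endoderm table listed 13644 Ensembl genes against 15004 in the mesoderm table. Counts were summed per gene, which gave 11598 genes in both tables, 2046 in the endoderm table only and 3406 in the mesoderm table only. A gene that is not in a table has no value there, which is not the same as a count of 0. Levels are given as CPM, counts relative to library totals that were scaled by TMM factors, and changes are log2 of endoderm over mesoderm, so a positive change is higher in endoderm. In bulk RNA, fewer cells of a type and less RNA per cell cannot be told apart.

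Of 11352 genes tested, 6723 (59.2%) differed between the cell types at an adjusted p under 0.05 (edgeR quasi-likelihood test, Benjamini-Hochberg adjustment). In endoderm 3182 genes (28%) were higher and 3541 (31.2%) were lower. The median absolute log2 change over all genes was 0.40, and 2134 genes (18.8%) were called with a change of at least 2-fold, 724 higher and 1410 lower in endoderm. Library totals without TMM scaling moved the median of all genes from -0.02 to 0.16 and turned the split to 4452 higher and 2643 lower, and the authors' TPM gave 3991 and 2387, so small differences depend on the scaling. With only the 11903 transcripts that both tables list, 4275 of 8803 genes were called.

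Genes of the definitive endoderm list were high in the libraries labelled endoderm. All 8 of the list's 28 genes that could be tested were called, against 59.2% of all genes tested. In endoderm 6 were higher and 2 lower, with a median change of 1.48 against -0.02 for all genes. APOA2, which encodes a lipoprotein of liver and gut endoderm, stood at 81.4, 63.7 and 77.5 CPM in the endoderm libraries and 0, 0 and 0.166 CPM in the mesoderm libraries. The mesoderm libraries held 2 APOA2 counts in all, so the ratio of 1587 has a 95% counting interval of 439 to 13106 (exact Clopper-Pearson). GATA6, a zinc finger regulator of endoderm, was at 118, 93.8 and 84.9 CPM in endoderm and 4.79, 5.08 and 4.41 CPM in mesoderm, a change of 4.37 ± 0.15 (SE; adjusted p = 4.04e-11), with no listed transcript in common between the tables. FOXA3, a forkhead factor of gut and liver, was at 62.7 ± 6.42 against 19.8 ± 2.97 CPM (SD, n = 3), a change of 1.67 ± 0.13. For each of these 3 genes the lowest endoderm library lay above the highest mesoderm library, and the groups did not overlap, in either direction, in 65.6% of all genes tested. KIT, a receptor tyrosine kinase, changed by 1.23 in the gene sums but by 0.04 on transcripts listed in both tables, where it was not called. Lower in endoderm were the head regulator OTX2 at 31.5 against 60.6 CPM and CYP26A1, which breaks down retinoic acid, at 15.4 against 34.3 CPM.

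Another 14 genes of the endoderm list, its central regulators among them, were in the endoderm table only, and 3, SOX7 and SHISA2 among them, were in the mesoderm table only, where SHISA2 had a mean of 16.4 CPM and SOX7 1.7 CPM. HNF4A, a nuclear receptor of the later gut and liver, was at 209, 156 and 164 CPM in the 3 endoderm libraries. GATA4 was at 178, 140.5 and 151 CPM, and SOX17, the SRY-box factor that marks definitive endoderm, was at 179, 137 and 139 CPM. Of the 14, 4 had means above 100 CPM, and the other 10 ran from 2.28 CPM (GSC, an organizer factor) to 48.1 CPM (EOMES). FOXA2 had a mean of 24.6 CPM, the chemokine receptor CXCR4 3.81 CPM and the secreted inhibitor CER1 6.74 CPM. No comparison with mesoderm can be made for any of the 14.

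**Figure D1:**
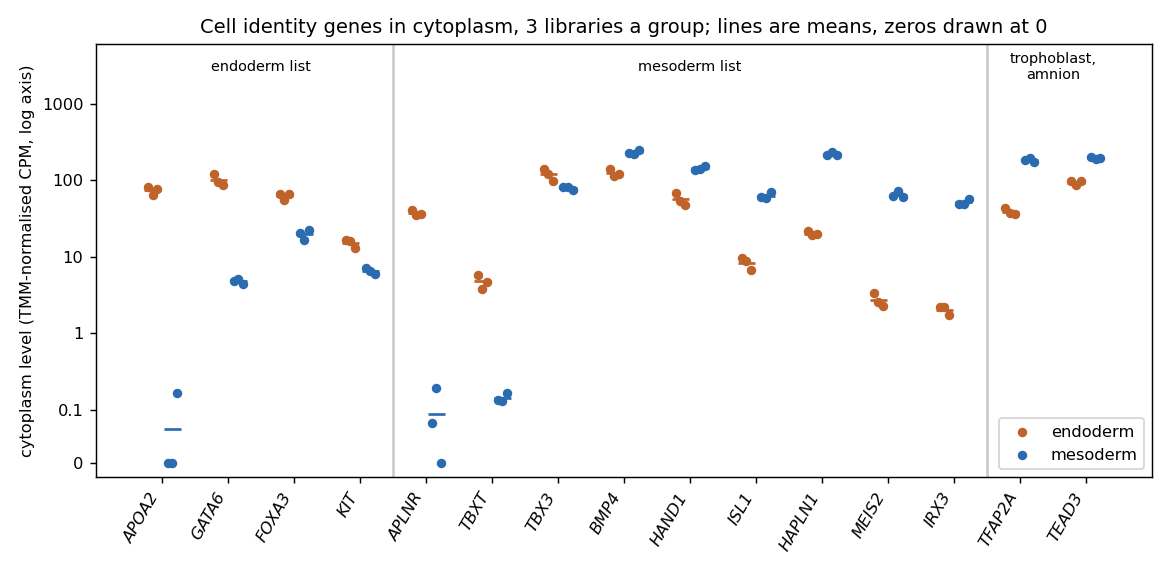
Levels of 15 identity genes in each cytoplasm library, in CPM on a log axis, with endoderm in orange and mesoderm in blue; short lines are means and zeros are drawn at the bottom. GATA6 and APOA2 were higher in all 3 endoderm libraries, HAPLN1, ISL1, MEIS2 and IRX3 in all 3 mesoderm libraries, and TBXT and APLNR lay with the endoderm libraries. The genes are a selection from their lists. Not drawn are OTX2 and CYP26A1 of the endoderm list, both lower in endoderm. CDX2, higher in endoderm, and GATA3, not called, of the trophoblast and amnion list are not drawn either.

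Genes of the mesoderm list differed in both directions. Of 17 tested genes, 12 were lower in endoderm, 4 were higher and 1 was not called, with a median of -0.89. Over all genes tested, 31.2% were lower and 28% higher. Higher in mesoderm were field and matrix genes. HAPLN1, a linker of hyaluronan in the matrix of the early heart, stood at 21.3, 18.9 and 19.6 CPM in endoderm and 209.5, 230.4 and 215 CPM in mesoderm, a change of -3.45 ± 0.10 (adjusted p = 1.07e-11). ISL1, the LIM-homeobox factor of the second heart field, stood at 9.55, 8.75 and 6.76 against 59.6, 57.6 and 68.8 CPM, a change of -2.88 ± 0.14. The divergent transcript ISL1-DT was also lower in endoderm, with a change of -4.90. IRX3, an Iroquois homeobox factor, changed by -4.66 and MEIS2, a TALE homeobox cofactor, by -4.54. HAND1, a bHLH factor of heart, extraembryonic mesoderm and trophoblast, was at 55.9 against 143 CPM. IRX3 and MEIS2 have no listed transcript in common between the tables. Another 7 genes of the list were in the mesoderm table only. MEIS1, a relative of MEIS2, had a mean of 50.4 CPM there, and the other 6 ran from 0.0428 to 6.16 CPM.

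Several genes of the streak stage lay on the other side. TBXT stood at 5.78, 3.82 and 4.67 CPM in endoderm and 0.133, 0.129 and 0.166 CPM in mesoderm, where 6 counts fell in 3 libraries, a ratio of 34.1 with a 95% counting interval of 15.5 to 93.8. APLNR, the apelin receptor of early mesoderm and mesendoderm, stood at 40.2, 34.6 and 35.5 against 0.0665, 0.193 and 0 CPM, a ratio of 394 (153 to 1446). MIXL1, at a mean of 14.4 CPM, the VEGF receptor gene KDR, at 17.3 CPM, and EVX1, at 10.5 CPM, were among 7 genes of the list in the endoderm table only. TBX3 and NCAM1, of later mesoderm, were also higher in endoderm, at 119.8 against 78.2 CPM and 1.86 against 0.632 CPM. TBX6, a T-box factor of the early paraxial mesoderm, was lower in endoderm, at 2.56 against 4.21 CPM. MESP1, MESP2, MSGN1, HAND2 and TWIST1 were in neither table. In the libraries labelled mesoderm, the early regulator TBXT was near 0, TBX6 was low, and MIXL1, MESP1, MESP2, MSGN1 and EVX1 were not listed.

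Several genes of the trophoblast and amnion list had high levels in the mesoderm libraries, most of them without a value in endoderm. The summed level ran from 246.7 to 292 CPM in endoderm, over the 4 genes with a value there, and from 1254 to 1294 CPM in mesoderm, over 13. These sums are of unlike sets of genes and cannot be compared directly. Of the list's 15 genes, 9 were in the mesoderm table only, and 0 were in the endoderm table only. GABRP, a GABA receptor subunit known from amnion, was at 398, 412 and 409.6 CPM, and IGFBP3, which binds insulin-like growth factors, at 206, 224 and 231 CPM. VTCN1 had a mean of 30.7 CPM, TFAP2C 30.2 CPM, KRT7 29.7 CPM and VGLL1 27.6 CPM, while CGA (1.16 CPM) and ELF5 (1.06 CPM), which mark mature trophoblast and trophoblast stem cells, were close to 0. GCM1 was in neither table. Of the 4 tested genes, TFAP2A changed by -2.24 and the TEAD factor TEAD3 by -1.08, GATA3 was at 129 against 133 CPM and not called, and CDX2 was higher in endoderm, by 3.54, at a low level of 6.7 CPM. TFAP2A turned to 0.23, not called, on transcripts listed in both tables. The part of these genes' cells in the differences given here was not tested.

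**Figure D2:**
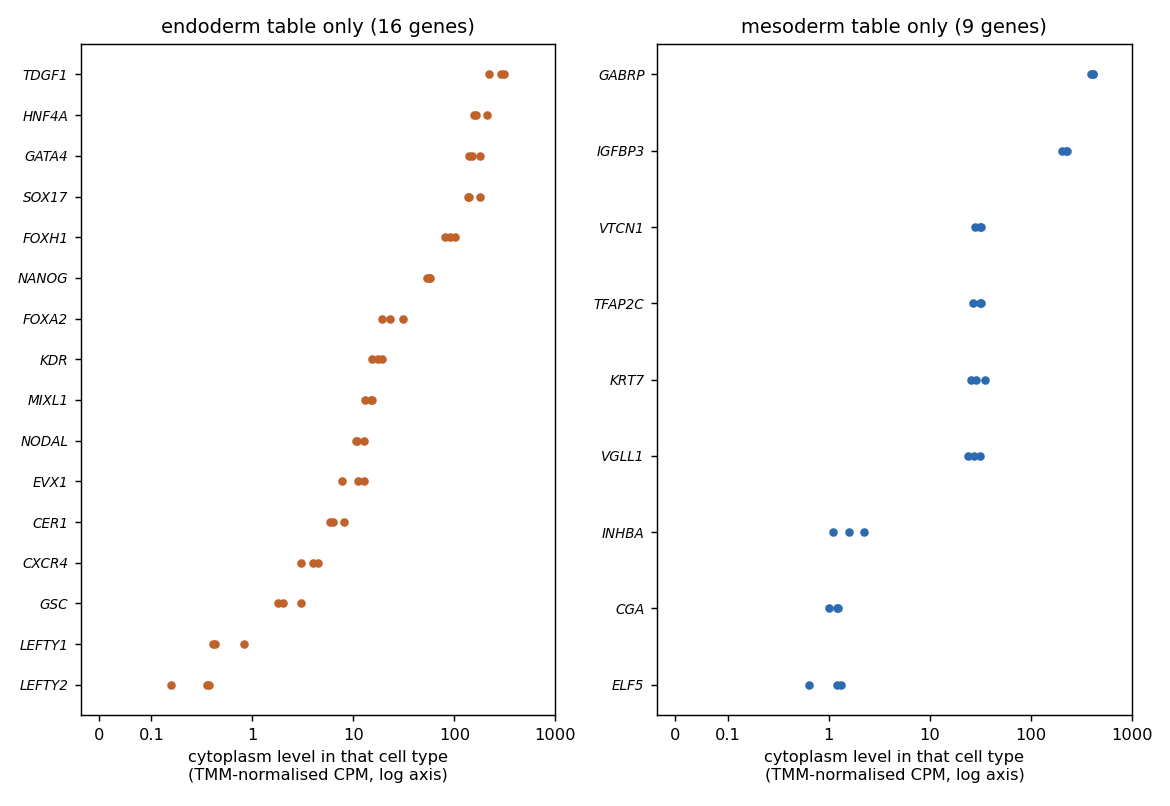
Cytoplasm levels of a selection of list genes found in 1 table only, 16 in endoderm and 9 in mesoderm. Each point is 1 library, in CPM on a log axis with zeros drawn at the left edge. EOMES of the endoderm table and MEIS1, SHISA2, SOX7 and KLF4 of the mesoderm table, given in the text, are not drawn. TDGF1, HNF4A, GATA4 and SOX17 head the endoderm panel, and GABRP and IGFBP3 head the mesoderm panel; lists shown are endoderm, mesoderm, pluripotency, nodal and activin, and trophoblast and amnion.

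Few genes of the lists for other cell types could be tested. Of the endothelial and blood list, 3 of 19 genes were tested and all 3 were higher in endoderm, led by FLT1 at 9.45 against 3.49 CPM, and 10 genes, PECAM1 and TAL1 among them, were in neither table. A further 5 were in the mesoderm table only, RUNX1, a blood regulator, the highest at 19.5 CPM, and 1 was in the endoderm table only. The list's summed level ran from 57.6 to 65.3 CPM in endoderm and from 53.2 to 61.6 CPM in mesoderm. Each sum takes the genes that its own table lists, so the ranges are of unlike sets of genes and cannot be compared directly. TNNT2, the troponin T of heart muscle, was at 3.1, 3.87 and 5.84 CPM in endoderm and 43.8, 63.5 and 65.5 CPM in mesoderm, with no listed transcript in common. MYH6 and MYH7, the heart's myosin heavy chains, were in neither table. TTN, the giant spring protein of muscle, went the other way, at 41.4 against 0.597 CPM, with no listed transcript in common between the tables. Of the neural ectoderm list, 3 of 17 genes were tested and 2 were higher in endoderm, with the secreted WNT antagonist SFRP1 at 241 against 121 CPM. Of the HOX genes, which give cells position along the body axis, 32 of 39 were in neither table and HOXB2 alone was tested, at 2.96 against 6.44 CPM, with a change of 0.64, not called, on transcripts listed in both tables.

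Most tested pluripotency genes were higher in endoderm. Of 11 tested, 8 were higher, 0 lower and 3 not called, with a median of 0.50. Over all genes tested, 28% were higher and 31.2% lower. DNMT3B, a de novo DNA methyltransferase, stood at 389, 794 and 809.9 CPM in endoderm and 131, 128 and 134 CPM in mesoderm, a change of 2.34 ± 0.21 (adjusted p = 5.7e-07). Endoderm replicate 1 was the lowest of the 3 endoderm libraries for DNMT3B, but above every mesoderm library. POU5F1 stood at 1464, 1690.4 and 1959 against 955, 890.1 and 1048 CPM, a change of 0.82 ± 0.12, so the gene remained abundant in both cell types. ZFP42, JADE1 and LIN28B were not called. TDGF1, the nodal co-receptor, at 272 ± 46.8 CPM, and NANOG, at 55.8 ± 2.19 CPM (SD, n = 3), were among 5 genes of the list in the endoderm table only. In the mesoderm table only were 3, KLF4 the highest at 8.18 CPM. On transcripts listed in both tables, 7 of the 11 tested genes were called higher and 2 lower in endoderm. L1TD1 was higher in endoderm by 0.67 in gene sums but had a change of -0.58 on transcripts in both tables. As shares of library totals without TMM, DNMT3B had a mean of 1795 CPM in hPSC cytoplasm, 704 in endoderm and 123 in mesoderm.

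Genes with large differences were then taken by size, whatever their function. The 20 genes named here, 10 in each direction, had the largest changes among those called both in gene sums and on transcripts listed in both tables with estimates within 1 log2 unit and groups that do not overlap, mitochondrial mRNAs left out, a choice made after their values were seen; APOA2, APLNR, FRZB, SLX1A, SLX1B, ANGEL1 and ISL1-DT are among them and are described with their groups. SERPINE2, a secreted inhibitor of serine proteases, stood at 624, 527 and 464 CPM in endoderm and 20.8, 20.1 and 21.6 CPM in mesoderm, a change of 4.69 ± 0.13 (adjusted p = 8.48e-12). HMOX1, the heme oxygenase induced by oxidative stress, stood at 170.0, 132 and 146 against 4.85, 3.73 and 5.33 CPM, a change of 5.02 ± 0.15. HAS2, a hyaluronan synthase, changed by 4.78, STC1, a secreted glycoprotein, by 5.04, and the protocadherin PCDH10 by 4.55.

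EPAS1, the hypoxia-inducible factor HIF-2 alpha, had the highest level among the 10 genes that were lower in endoderm. It stood at 14.8, 12.7 and 10 CPM in endoderm and 574, 575 and 522 CPM in mesoderm, a change of -5.47 ± 0.14 (adjusted p = 5.31e-12). Without TMM its share was 1.11 CPM in hPSC cytoplasm, 13.3 CPM in endoderm and 525 CPM in mesoderm. RARB, a retinoic acid receptor, changed by -4.28, EYA1, a phosphatase and coactivator of kidney and ear development, by -4.27, the RNA-binding protein gene RBMS3 by -4.30 and the autophagy gene MAP1LC3C by -4.08. RARB and CYP26A1 were thus both lower in endoderm. The antisense gene ENSG00000267383 (5.28) and the lincRNA ENSG00000248605 (-4.36) had other sizes in the authors' TPM, which corrects for length, at 0.51 for the former and -0.22, not called, for the latter. Use of strand in the counting is not given in the sources used here, so reads of antisense or divergent genes and of their partners cannot be told apart. RPL13P12, a processed pseudogene of a ribosomal protein gene, changed by -5.46, and reads of such a copy may be shared with its parent gene.

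**Figure D3:**
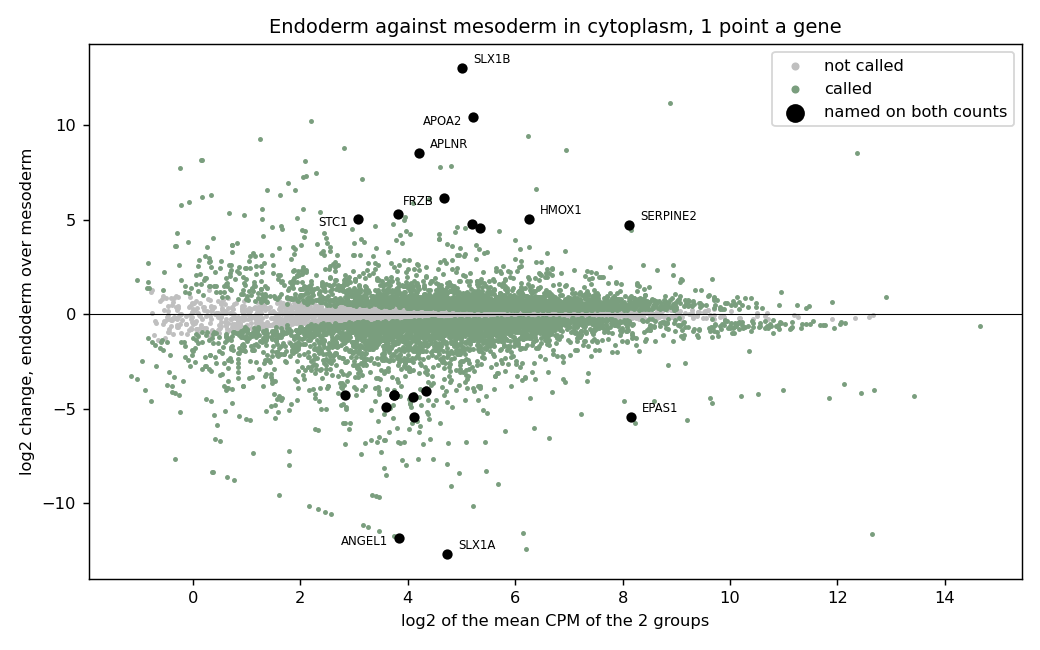
The log2 change of each of 11352 tested genes against the log2 of the mean CPM of the groups, grey where not called and green where called. Black points are the 20 genes named on both gene sums and shared transcripts; APOA2 and APLNR are among the highest, and EPAS1 and SERPINE2 combine a large change with a high level.

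The genes with the largest fitted changes of all mostly had different transcripts listed in each table. Of the 20 that lead by size alone, 14 have no listed transcript in common between the tables, and 8 are at 0 in every library of the lower group. DOT1L, a histone methyltransferase, held 1 count in the 3 endoderm libraries and a mean of 146 CPM in mesoderm. LIMK1, a kinase of the actin cytoskeleton, stood at 146, 144 and 162 CPM in endoderm and 0.199, 0.129 and 0.333 CPM in mesoderm. SLX1A at 53.1 CPM in mesoderm and SLX1B at 64.5 CPM in endoderm are near-identical copies with opposite patterns, at least 311-fold lower and at least 306-fold higher in endoderm against a floor of 3 counts per library, and reads may be divided between them. The others are USP53, ANGEL1, BDP1, HAPSTR1, LINC01405, KNL1, NEDD4 and ENSG00000280800 lower, and APOA1, XYLT1, HDAC2-AS2, APLNR, DENND2C, FOXK1, APOA2 and ENSG00000280614 higher in endoderm. Among called genes with an absolute log2 change of at least 5, 15.9% had a transcript listed in both tables, against 73.2% of all called genes and 77.8% of all tested genes.

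Genes found in 1 table only held 2.01% to 2.38% of the counts of the endoderm libraries and 3.70% to 3.97% of those of the mesoderm libraries. At 10 CPM or more there were 234 such genes in endoderm and 823 in mesoderm. The 5 with the highest mean in endoderm were 5_8S_rRNA, ENSG00000281383, SEMA3E, a semaphorin guidance signal, at 505 ± 71.7 CPM, the signal recognition particle RNA gene RN7SL2, and RPL41P1. Those in mesoderm were RNA5-8SN4, SESN3, a sestrin of the stress response, at 430.3 ± 26.8 CPM, the annexin ANXA1 at 415 ± 22.4 CPM, PAWR at 408 ± 21.9 CPM and GABRP. Copies of the 5.8S ribosomal RNA thus stood under a different name in each table. The imprinted lncRNA H19, at 353 ± 53.1 CPM, was in the mesoderm table only, and LINC00261, a lncRNA beside FOXA2, at 15.8 ± 3.48 CPM, in the endoderm table only.

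WNT pathway genes went both ways. Of 19 tested, 84.2% were called, against 59.2% of all genes, with 8 higher in endoderm, 8 lower and 3 not called. Among those higher in endoderm were antagonists and feedback targets. FRZB, a secreted antagonist that binds WNT ligands, stood at 60, 46.9 and 45 CPM in endoderm and 0.731, 0.45 and 0.999 CPM in mesoderm, a change of 6.15 ± 0.22 (adjusted p = 6.11e-11). NOTUM, a secreted WNT deacylase, changed by 4.98 and the ubiquitin ligase ZNRF3 by 5.09, both with no listed transcript in common between the tables. The antagonist DKK1 changed by 3.66 and the transcription factor TCF7 by 1.49. ZNRF3 and DKK1 were at low levels, with means under 10 CPM in both groups. AXIN2, a standard feedback target, changed by 0.96 in counts, but its sign turned in the authors' TPM. RNF43, a relative of ZNRF3, changed by -0.86 and turned to 0.84, not called, on shared transcripts. Among receptors, FZD4 was higher in endoderm, at 174 against 32.3 CPM, while FZD6 (-1.97), FZD5 (-1.83) and FZD1 (-1.26) were lower. SP5, a WNT target, at 66.7 CPM, and the inhibitor NKD1, at 28.8 CPM, were among 5 in the endoderm table only. In the mesoderm table only were 6, with the receptor gene FZD2 at 47.1 CPM and LEF1, a transcription factor that acts with beta-catenin, at 11.1 CPM.

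All 10 tested nodal and activin genes were called, against 59.2% of all genes, with 4 higher and 6 lower in endoderm. Their median was -0.38. In the authors' TPM 5 were higher and 2 lower, with a median of 0.29, and the receptor genes ACVR2A and ACVR2B, at -1.32 and -0.52 in counts, changed sign. On shared transcripts 5 could be tested, 1 called higher and 1 lower, so the list has no direction that holds over these settings. The type I receptor gene ACVR1B was at 44.9 against 2.77 CPM, with no listed transcript in common. SMAD3, which carries the signal to the nucleus, stood at 28.2, 23.5 and 24.3 CPM in endoderm and 69.6, 66.8 and 62.5 CPM in mesoderm, a change of -1.39 ± 0.10, and SMAD4 changed by -0.72 but was not called in the authors' TPM. The target PMEPA1 was higher, by 1.02. FOXH1, the nuclear partner of SMAD2 and SMAD3, at 90.9 CPM, and NODAL, at 11.4 CPM, were in the endoderm table only, where the feedback inhibitors LEFTY1 and LEFTY2 were at 0.556 and 0.292 CPM. INHBA, which encodes the activin A subunit, was in the mesoderm table only, at 1.65 CPM.

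BMP genes showed no shared direction. Of 17 tested, 5 were higher in endoderm, 4 lower and 8 not called, with a median of -0.03, and without TMM 8 were higher and 4 lower. With TMM 52.9% of the list was called, against 59.2% of all genes tested. The ligand genes moved apart, BMP2 at 109 against 22.6 CPM and BMP4 at 124 against 229.7 CPM. ID1, a direct target of the pathway, stood at 745, 564 and 664 CPM in endoderm and 629.5, 639 and 775 CPM in mesoderm and was not called. ID3 was higher in endoderm, by 0.63, as was the inhibitor SMAD6, by 1.26, and the secreted antagonist NOG was lower, with a change of -1.78. ID4, at 182 CPM, was in the mesoderm table only.

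FGF and VEGF genes also went both ways, with 7 of 16 higher in endoderm, 6 lower and 3 not called. The list was called in 81.25%, against 59.2% of all genes tested. FGFR1 was at 827, 754 and 780.2 CPM in endoderm and 201, 181 and 192 CPM in mesoderm, a change of 2.04 ± 0.10, and FGFR4 at 175 against 18.7 CPM. DUSP4, a phosphatase that ERK signalling induces, was higher by 3.58, while DUSP6 and SPRY2, which ERK signalling also induces, changed by -0.82 and -0.77. ETV4 and ETV5, 2 further targets, were not called. The VEGF co-receptor genes NRP1 and NRP2 changed by -1.06 and -1.46, and the ligand gene VEGFA was higher, by 1.07. NRP1 was not called in the authors' TPM, and NRP2 was not called on shared transcripts.

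**Figure D4:**
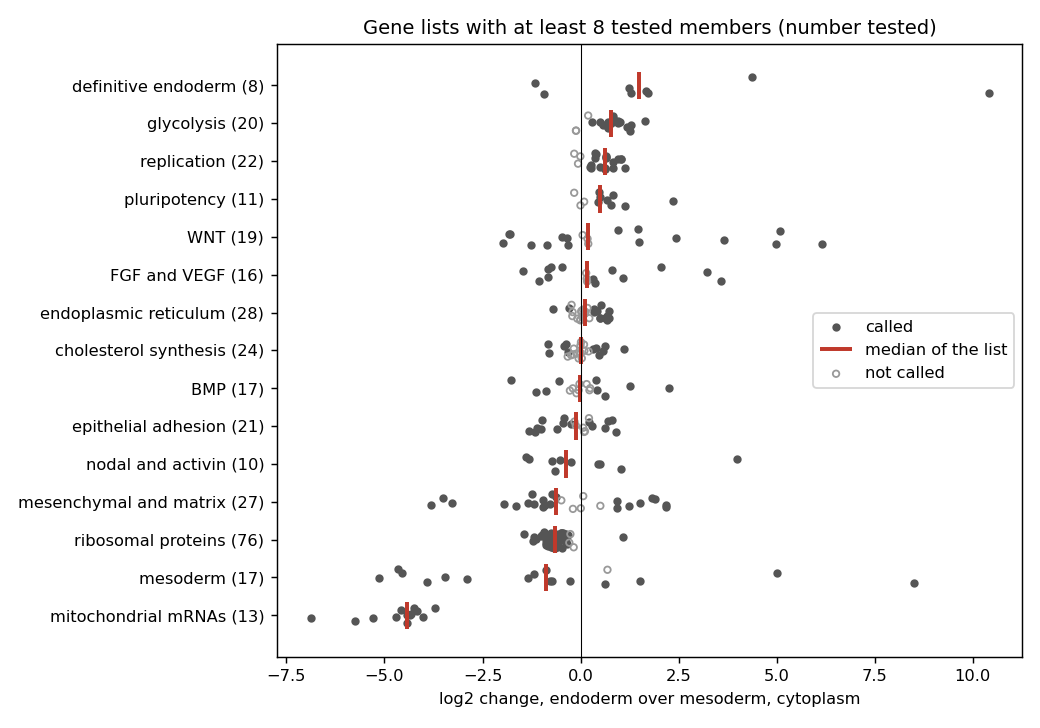
The log2 change of each tested member of the lists with at least 8 tested genes, filled where called and open where not, with a red line at each list's median. The medians run from -4.43 for the mitochondrial mRNAs to 1.48 for definitive endoderm, glycolysis and replication genes lie to the right, and the signalling lists spread to both sides of 0.

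Actin, collagen and adhesion genes separated into sets. Of 27 tested mesenchymal and matrix genes, 14 were lower in endoderm, 8 higher and 5 not called, with a median of -0.63. Over all genes tested, 31.2% were lower and 28% higher. Of the list's actin and actin-associated genes, ACTA2, TPM1, TAGLN, MYL9 and CNN1 were lower in endoderm and TPM2 was not called. ACTA2, smooth muscle actin, stood at 13.1, 10.6 and 13.3 CPM in endoderm and 108, 117 and 131 CPM in mesoderm, a change of -3.27 ± 0.12, the tropomyosin gene TPM1 at 539 against 2080.4 CPM, and the actin-binding gene TAGLN at 492 against 1124 CPM. So were the matrix genes TGFBI (-3.81), LUM (-3.50) and COL1A1 (-1.65), a fibrillar collagen. Several basement membrane and beaded filament genes were higher in endoderm, with LAMA1, a laminin chain, at 157 against 34.4 CPM, COL4A1 changed by 1.83 and COL6A1 by 1.91. LAMB1 and LAMC1, partner chains of LAMA1, were lower, with changes of -0.95 and -1.24.

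E-cadherin and N-cadherin differed in opposite directions. CDH1, E-cadherin, stood at 70.2, 74.7 and 67.5 CPM in endoderm and 169, 149 and 160.3 CPM in mesoderm, a change of -1.17 ± 0.09, whereas CDH2, N-cadherin, stood at 96.3, 86.7 and 70.9 against 48.3, 45.4 and 39.7 CPM, a change of 0.93 ± 0.12. CDH3 changed by -1.31, the keratin gene KRT18 by -0.99 and KRT8 by -0.60, while KRT19 was higher by 0.89. SNAI1, a repressor of E-cadherin, was at 18.9 against 8.02 CPM. ZEB1 and ZEB2, which also repress it, were in the mesoderm table only, ZEB1 at 0 and ZEB2 at 0.351 CPM. The libraries labelled mesoderm thus had the higher level of E-cadherin and the lower level of N-cadherin. Of the 21 epithelial genes 9 were lower in endoderm, 6 higher and 6 not called, and without TMM 8 were lower and 8 higher. With TMM 71.4% of the list was called, against 59.2% of all genes tested.

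Glycolysis genes were higher in endoderm almost throughout. Of 20 tested, 17 were higher, 0 lower and 3 not called, with a median of 0.78. Over all genes tested, 28% were higher and 31.2% lower. LDHA, which turns pyruvate to lactate, stood at 325, 510.3 and 559 CPM in endoderm and 145, 143 and 161 CPM in mesoderm, a change of 1.63 ± 0.16 (adjusted p = 1.34e-06), and endoderm replicate 1 was again the lowest endoderm library but above every mesoderm library. ENO1, enolase, stood at 2521, 2622 and 3127 against 1242, 1164 and 1228 CPM, a change of 1.19 ± 0.11, and TPI1 changed by 1.25. PGK1 changed by 1.00 in counts but was not called in the authors' TPM. The 3 genes not called were the phosphofructokinase PFKP and the glucose transporters SLC2A1, at 108 against 118 CPM, and SLC2A3. The base medium differs between the groups, and its part in these levels cannot be told apart from that of the cell type.

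Promoter sequence is shown for 3 of these genes, because the list moved together and the letters ACGTG could be searched on both strands. ACGTG is a form of the core letters that hypoxia-inducible factors and E-box proteins recognise. Other forms of the core were not searched, so a window without a match may still hold one. A match on each strand that overlaps the other forms CACGTG. The windows are the 250 bases before a RefSeq start (GRCh38.p14), written 5′ to 3′ along the gene, with matches in capitals.
LDHA, upstream start, chr11:18394313-18394562, plus strand: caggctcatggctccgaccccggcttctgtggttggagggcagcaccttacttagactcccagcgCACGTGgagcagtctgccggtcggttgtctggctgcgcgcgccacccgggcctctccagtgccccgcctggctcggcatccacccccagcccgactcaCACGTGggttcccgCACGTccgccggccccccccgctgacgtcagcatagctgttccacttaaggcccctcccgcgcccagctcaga
PGK1, chrX:78103998-78104247, plus strand: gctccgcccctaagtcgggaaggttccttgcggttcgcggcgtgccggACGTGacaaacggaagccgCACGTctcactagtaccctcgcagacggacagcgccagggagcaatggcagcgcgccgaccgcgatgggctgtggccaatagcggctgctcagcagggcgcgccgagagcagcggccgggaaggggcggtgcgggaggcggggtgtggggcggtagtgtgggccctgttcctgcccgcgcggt
ENO1, chr1:8878687-8878936, minus strand: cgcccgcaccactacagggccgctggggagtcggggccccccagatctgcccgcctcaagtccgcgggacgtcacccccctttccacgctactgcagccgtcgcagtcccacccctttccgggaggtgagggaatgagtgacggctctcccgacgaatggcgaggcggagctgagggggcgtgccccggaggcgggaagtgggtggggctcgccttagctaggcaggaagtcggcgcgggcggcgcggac
LDHA held 5 matches at this start counted over both strands and 0 at its other listed start, PGK1 held 2 and ENO1 held 0, although ENO1 changed by 1.19 and PGK1 by 1.00. Of 19 glycolysis genes with a listed promoter, 12 (63.2%) had a match before at least 1 start, against 21.7% of 27305 genes. By window, 15 of 43 (34.9%) had one, against 18.5% of 35116. Of the replication genes described below, 6 of 18 (33.3%) had a match, and 6 of their 25 windows (24%). The glycolysis genes have more starts listed than most, and a match is only a run of letters. A part of these matches in the changes was not tested.

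DNA replication genes were also higher in endoderm. Of 22 tested, 19 were higher, 0 lower and 3 not called, with a median of 0.62. The list was called in 86.4%, against 59.2% of all genes tested. MCM2, a subunit of the replicative helicase, stood at 212, 260.1 and 288 CPM in endoderm and 122, 110.3 and 117 CPM in mesoderm, a change of 1.12 ± 0.11, and MCM6 changed by 1.03. RRM2, the ribonucleotide reductase subunit of S phase, changed by 1.03. The polymerase clamp PCNA was higher by only 0.27, and TYMS and CDT1 were among those not called. Of 28 endoplasmic reticulum genes, 11 were higher, 2 lower and 15 not called, where 28% of all genes were higher and 31.2% lower. The list was called less often (46.4%) than all genes tested (59.2%). PDIA4 changed by 0.72 and CALR by 0.71, and the chaperone gene HSPA5 was not called. Cholesterol synthesis genes split into 6 higher, 5 lower and 13 not called, and without TMM into 9 higher and 2 lower.

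Mitochondrial mRNAs were far lower in the endoderm cytoplasm. All 13 were called, with a median of -4.43 and changes from -6.88 (MT-ATP8) to -3.72 (MT-ND4). MT-ATP8 stood at 7.71, 92.8 and 15.6 CPM in mesoderm, where replicate 2 was far above the others, as it was for MT-ND3 and for MT-ND4L, the latter at 82.4, 630.4 and 165 CPM. Without that library the changes of MT-ATP8, MT-ND3 and MT-ND4L were -5.11, -4.74 and -4.02, and the median of the 13 was -4.23. MT-CO1, a subunit of cytochrome c oxidase, stood at 943, 1150 and 1086 CPM in endoderm and 18531, 22068 and 22580 CPM in mesoderm. Summed over the 13, the level ran from 3113 to 3399 CPM in endoderm and from 49310 to 66842 CPM in mesoderm. In the nucleus libraries the order was the opposite, where all 13 were higher in endoderm against a background of 32.3% of genes called higher, with a median of 4.12. MT-CO1 changed by -4.31 ± 0.15 in cytoplasm and by 3.85 ± 0.49 in nucleus. Mitochondrial genes took 0.432% to 0.475% of counts in endoderm cytoplasm and 8.36% to 16.1% in endoderm nucleus, against 5.91% to 7.57% and 1.17% to 1.39% in mesoderm. In cytoplasm of hPSC the share was 0.441% to 0.621% and of ectoderm 1.03% to 1.59%, so mesoderm had the highest cytoplasm share of the 4 cell types. Mitochondria lie outside the nucleus. A difference between the cell types in how the fractions separated cannot be told apart from a difference in their RNA, and this holds for every cytoplasm and nucleus value given here. Of the list of RNAs known to stay in the nucleus, 2 of 3 tested were lower in endoderm in cytoplasm (median -0.62) and 2 of 3 in nucleus (median -2.05). Leaving out endoderm nucleus replicate 1, which stands apart from the other two, left all 13 higher in nucleus with a median of 3.52. Leaving the mitochondrial genes out of the fit gave 6725 calls in cytoplasm.

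Ribosomal protein mRNAs were also lower in the endoderm cytoplasm and higher in the endoderm nucleus, by smaller amounts. In cytoplasm 72 of 76 were lower in endoderm, 1 was higher and 3 were not called, with a median of -0.65. Over all genes tested there, 31.2% were lower and 28% higher. RPLP0 stood at 3223, 3224 and 4015 CPM in endoderm and 4599, 4783 and 5455 CPM in mesoderm, a change of -0.50 ± 0.12. The number called lower ran from 58 to 75 when single libraries were left out. RPS26 was the 1 gene called higher, by 1.07, and turned to -2.59 on transcripts listed in both tables. In nucleus 60 of the 76 were higher in endoderm and 3 lower, where 32.3% and 32.7% of all genes were, with a median of 1.16, and the median without TMM was 0.60 there and -0.47 in cytoplasm. On chromatin 16 were lower and 0 higher, where 16.9% and 17.4% of all genes were, with a median of -0.42, and the number lower ran from 3 to 38 when single libraries were left out. Ribosomal protein genes have many processed pseudogenes, and reads may be divided among the copies.

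**Figure D5:**
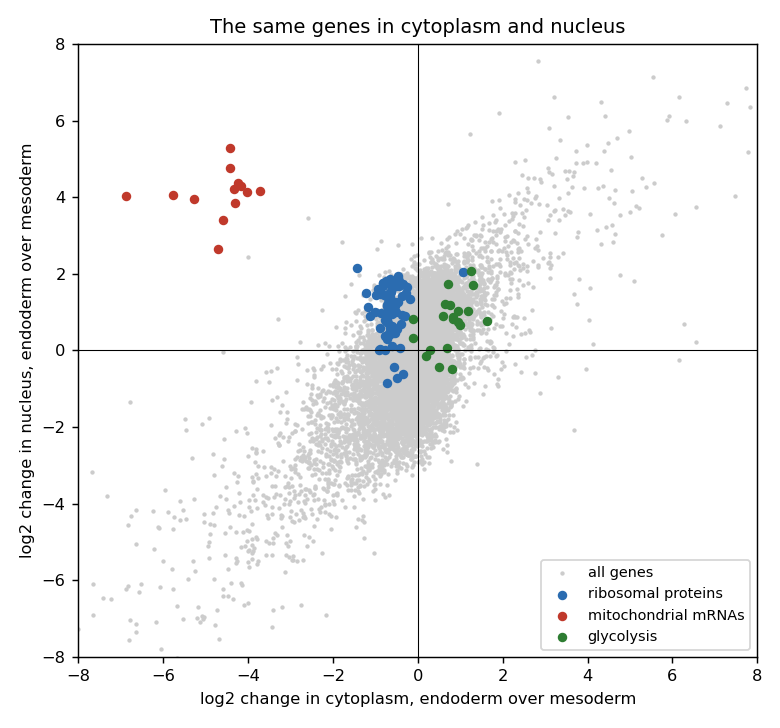
The log2 change in nucleus against the log2 change in cytoplasm for 11206 genes tested in both, with mitochondrial mRNAs in red, ribosomal protein genes in blue and glycolysis genes in green; 63 genes lie beyond the axis limit of 8. The 13 mitochondrial mRNAs sit at the upper left, below 0 in cytoplasm and above 0 in nucleus.

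Of genes called in both fractions, most had the same direction. In nucleus 7318 of 11264 genes (65%) were called, and of the 4641 called in both fractions 3894 had the same direction and 747 the opposite one. The former are 58.5% of the cytoplasm calls and 53.4% of the nucleus calls. By list, the definitive endoderm genes were called higher 6 times and lower 2 times in nucleus, as in cytoplasm, and 14 of 20 glycolysis genes were higher and 0 lower. The pluripotency genes had 3 higher and 4 lower there with a median of -0.05, the mesoderm genes 6 and 6 with a median of 0.34, and the replication genes 9 and 2. Without TMM these nucleus counts were 7 and 5 for glycolysis, 3 and 6 for replication and 5 and 2 for definitive endoderm. The pluripotency genes then had 2 and 5, and the mesoderm genes 5 and 8. With single nucleus libraries left out, 8 to 14 glycolysis genes were higher and 0 to 2 lower. For replication 5 to 12 were higher. On chromatin 3847 of 11238 genes (34.2%) were called, and of 2897 called in both, 2716 had the same direction and 181 the opposite one. GATA6 changed by 4.37 in cytoplasm, 4.28 in nucleus and 4.12 on chromatin, SERPINE2 by 4.69, 5.55 and 4.64, and EPAS1 by -5.47, -4.41 and -4.73. LDHA changed by 1.63 in cytoplasm and 0.77 in nucleus, and its value on chromatin was -0.42, not called. Of the 20 glycolysis genes, 2 were higher and 0 lower on chromatin (median -0.13), where 17.4% and 16.9% of all genes were. Without endoderm nucleus replicate 1, 4183 of 5023 genes called in cytoplasm and nucleus had the same direction, and without mesoderm chromatin replicate 3, 2900 of 3083 called in cytoplasm and on chromatin did. The fractions of a cell type share its assembly and may come from the same cells, so they are not independent of each other.

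The difference between the cytoplasm and nucleus changes was tested in 1 fit of both fractions. It was called in 5832 of 11453 genes (50.9%), above 0 in 2257 (19.7%) and below 0 in 3575 (31.2%). Without TMM the split was 4734 above and 734 below 0, so the overall direction depends on scaling. MT-ATP8 (-11.01), MT-ND3 (-9.93), MT-ATP6 (-9.81), MT-ND4L (-9.36) and the pseudogene RPL22P1 (-9.33) had the lowest values. ATP6V1G2-DDX39B (10.69), PCDHA12 (7.31), ENSG00000280614 (7.05), CHD9 (6.19) and RAD52 (5.49) had the highest. CHD9 and RAD52 were close to 0 in endoderm cytoplasm, at means of 0.593 and 0.142 CPM, against 33.1 and 22.4 CPM in mesoderm. In the endoderm nucleus libraries ATP6V1G2-DDX39B, CHD9 and RAD52 were all at 0, as were PCDHA12 in mesoderm cytoplasm and RPL22P1 in mesoderm nucleus, so their fitted values and ranks depend on the prior count and are no bounds. RPL22P1 was also uneven in mesoderm cytoplasm, at 4.65, 71.1 and 4.91 CPM.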

How the data were processed

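RNA of 6 cytoplasm libraries was analysed, with 6 nucleus and 6 chromatin libraries of the same cell types for context; columns coded "Nei" were read as nucleus. Groups came from the sample titles. The authors deposited whole-number counts per assembled transcript and TPM values, 1 pair of tables per cell type, each on its own assembly. The submitters' processing notes name STAR, RSEM and hg38, without versions or roles; the handling of reads that fit several isoforms is not given in the sources used here. Another 2 deposited columns matched no sample and were not used. Rows without an Ensembl gene (1.24% to 3.15% of cytoplasm counts) were left out of library sizes.

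Transcript counts were summed per Ensembl gene and joined over both tables. Genes kept by filterByExpr (minimum count 10) entered a two-sided quasi-likelihood F test, 3 libraries against 3, in edgeR 4.0.16 under R 4.3.3, after TMM scaling, with Benjamini-Hochberg adjustment over all genes tested and calls at an adjusted p under 0.05. Only the cytoplasm fit was tested on simulated data, in which few genes changed, equally in both directions. That simulation does not bear on the choice of scaling. The SE of a change is its size divided by the square root of F. A floor of 3 counts per library was used against groups at 0; floors and intervals cover counting error only. The difference between fractions was an interaction term in 1 fit. Alternatives used other scalings and filters, DESeq2 1.42.0, limma 3.58.1 on log2(TPM + 1) and log2(TPM + 0.1), transcripts listed in both tables, a fit of all 4 cell types, a replicate block and each library left out.

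Named genes are up to 10 per direction by size among those called, with at least 10 CPM in the higher group and no overlap, up to 5 called members per direction of a list, 5 genes of each table alone and 5 per direction of the difference between fractions. Further members are named where a list's description needs them, and some genes are not reported here. The comparison, members and lists were chosen with earlier results of these data known.

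Depth limits the low genes: 1 count is worth 0.0516 to 0.0832 CPM in these cytoplasm libraries.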

Additional observations from a re-analysis of the deposited data

Results flagged for a closer look

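In 23 of the genes named here, the 13 mitochondrial mRNAs among them, endoderm and mesoderm were called as different in opposite directions in cytoplasm and in nucleus, and the difference between both changes was itself called (edgeR interaction term, 3 libraries in each of 4 groups). Over all genes, 747 of the 4641 called in both fractions (16.1%) had opposite directions. The difference was called in 50.9% of 11453 genes, so neither trait is particular to the named genes. Values here are the cytoplasm change minus the nucleus change, in log2 units. The mitochondrial mRNAs had the largest, MT-ATP8 at -11.01, MT-ND3 at -9.93, MT-ATP6 at -9.81, MT-ND4L at -9.36, MT-CO2 at -9.29, MT-ND2 at -8.71, MT-ND1 at -8.66, MT-CO3 at -8.58, MT-CO1 at -8.27, MT-CYB at -8.26, MT-ND6 at -8.11, MT-ND4 at -7.98 and MT-ND5 at -7.48. Ribosomal protein genes followed with RPS29 at -3.70, RPS27 at -2.85, RPL37 at -2.44, RPLP0 at -2.37, RPL9 at -2.15 and RPS15A at -2.13. RPS29 was not called in cytoplasm with DESeq2 (adjusted p = 0.12) or without mesoderm replicate 2, which moved it to -0.26. RPL37 changed sign in cytoplasm in the authors' TPM, to the direction that its nucleus change has in counts. The claudin gene CLDN4, of tight junctions, was at -2.02.

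Among genes higher in endoderm cytoplasm and lower in endoderm nucleus, the telomere gene TERF1 was at 1.87, L1TD1 at 2.46 and the SMAD repressor gene SKIL at 2.06. SKIL changed by 0.49 in cytoplasm and -1.72 in nucleus, and its cytoplasm call was lost when endoderm replicate 1 was left out (0.37). TERF1 changed by 1.12 and -0.89. The sign of L1TD1 in cytoplasm turned on transcripts listed in both tables, to the direction that its nucleus change has in gene sums. Without endoderm nucleus replicate 1, which stands apart from the other two, all 23 genes were still called in opposite directions in cytoplasm and nucleus, with the difference called.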

How the results depend on the processing

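In cytoplasm the count of 6723 genes ran from 5933 to 6725 with single libraries left out, stood at 7075 with a replicate block, at 6642 with DESeq2, at 6787 with no filter on low counts and at 10008 with genes of 1 table counted as 0 in the other. It was 2134 when a change of at least 2-fold was also required and 4275 on transcripts listed in both tables, where fewer genes were tested. The count for nucleus (7318) ran from 5939 to 8013 with single libraries left out, that for chromatin (3847) from 2536 to 4157, and that for the difference between fractions (5832) from 4837 to 6435. Chromatin fell to 2536 without endoderm chromatin replicate 3. Without TMM the split was 1765 higher and 4641 lower in nucleus and 1385 and 2451 on chromatin. With a replicate block these counts were 7043, 3451 and 5161. Deviations of same-numbered cytoplasm libraries correlated at 0.045, 0.080 and 0.333, so the numbers were not taken to pair samples; with the block no named gene lost its call or changed sign.

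For 161 genes followed through the alternatives, 2594 of 2668 values kept their direction and call, 57 lost the call and 17 changed sign. All were picked because they were called in the same libraries, and some also by their call on transcripts listed in both tables. The share that held is therefore no measure of how calls hold in general. Only 127 had a value on transcripts listed in both tables and 131 in the fit of all 4 cell types. Changes of sign on transcripts listed in both tables were L1TD1 (-0.58), TFAP2A (0.23), RNF43 (0.84), TUG1 (0.062) and RPS26 (-2.59). In the authors' TPM with 1 and with 0.1 added they were ACVR2A (0.24 and 0.30), ACVR2B (0.34 and 0.35), BMPR1A (0.21 and 0.22), AXIN2 (-0.31 and -0.34), RPL37 (3.41 and 3.41) and SEC62 (0.43 and 0.47). The cause was not tested. Adding 1 to TPM shrinks changes of low genes. On chromatin 0 of 13 mitochondrial mRNAs were called, but 9 were higher without mesoderm chromatin replicate 3, which stands apart in its mitochondrial share (5.73%). Depth limits genes below a few counts per library.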

Other observations

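Several genes of other developmental fields were found in 1 table only and belong to no comparison. SOX3, a neural and primordial SRY-box gene, was listed in mesoderm at 32.8 CPM, MEIS1 at 50.4 CPM, RUNX1 at 19.5 CPM and NR2F2, a nuclear receptor of mesenchyme and amnion, at 183 CPM (means of 3 libraries). In the endoderm table IHH, a hedgehog ligand of gut endoderm, stood at 38.3 CPM, its receptor PTCH1 at 47.9 CPM and CST1, a secreted cystatin, at 210.3 CPM. NR2F2, IHH, PTCH1 and CST1 were picked after their values were seen.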
